A study of Homo sapiens with 9 samples.

Results

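Pladienolide B was compared with its solvent, DMSO, in MDA-MB-231 cells, an established line from a breast cancer without hormone receptors or HER2 amplification, of mesenchymal character. The features compared were those whose mean over the 9 libraries of the series was at least 10 normalised reads, which left 16846 of the 46846 features listed. Of these, 14288 carried a gene symbol, and 12512 could be matched to a protein-coding gene. The comparison rests on 6 of the 9 libraries of polyadenylated RNA: 3 of cells exposed to pladienolide B at 10 nM for 6 h and 3 of cells exposed to DMSO, whose time is labelled 12 h. Compound and time therefore differ together and cannot be told apart. The other 3 libraries, from cells given 3.3 µM indisulam for 12 h, entered the fit only through the shared estimate of the spread. All libraries came from the same unmodified line, grown in the same medium, and the labels do not say whether the 3 libraries of a group came from separate cultures. The p-values therefore measure the spread between these libraries, which may be technical.

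Pladienolide B is a macrolide that binds SF3b, the part of the U2 small nuclear ribonucleoprotein (snRNP) that recognises the branch site of an intron. SF3B1 holds the branch-site helix together with PHF5A, and the compound occupies the pocket between them, so that the spliceosome stalls before the first catalytic step. Introns are then retained or exons are skipped, and many of the resulting transcripts stay in the nucleus or are degraded. Genes without introns do not need this step. A gene-level read count, such as the one used here, counts reads over a feature and does not tell spliced from unspliced RNA. Messages that were long-lived before the drug was added can also persist for hours without new splicing.

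The libraries held 59312100 to 83910831 reads over listed features. Values were deposited after division by 1 size factor per library, and the deposited totals were 61016460 ± 574381 in DMSO (mean ± SD, n = 3) and 84689853 ± 2607968 in the treated libraries, which is 1.39 times as high. No DMSO total reached a pladienolide B total, and the exact two-sided permutation p was 0.1, the smallest that 3 libraries against 3 can give. Features of the mitochondrial chromosome took 8.72% ± 0.437 of the DMSO totals and 13.8% ± 0.150 of the pladienolide B totals, and the 100 highest features took 27.1% ± 0.291 and 35.3% ± 0.401. The part of these shares in the gene results was not tested beyond the rescaling given beside them. Scaling every library to the same total moved the median log2 change of all features from -0.01 to -0.48, a shift of -0.47, and any direction near 0 turns on this choice. The RNA per cell was not measured, and in bulk RNA fewer cells of a type and less RNA per cell cannot be told apart.

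The label of the line was checked against cell type markers. Of 14 mesenchymal breast cancer markers 13 had a mean of at least 10, with VIM between 123380 and 132625 normalised reads in DMSO, while TWIST1 was listed at 0 in all 6 libraries. ESR1 and PGR, the hormone receptors that the line is defined as lacking, did not exceed 2.04 and 1.68 normalised reads. Other luminal epithelial markers were high, and 15 of the 18 listed had a mean of at least 10. Their summed level was 125162 to 138010 in DMSO and 159491 to 173349 with pladienolide B. In DMSO, KRT8 was between 44748 and 48286 and KRT18 between 41498 and 45427, while FOXA1 stayed at or below 6.11. Of 14 leukocyte markers 7 passed the minimum mean over the 9 libraries. The pan-leukocyte marker PTPRC stayed at or below 26.1 normalised reads. CSF1R was higher, at 252 to 287 in DMSO and 211 to 295 with pladienolide B. CD14 was at 40.8 to 48.7 in DMSO and 64.5 to 93.3 with pladienolide B. Of 12 fibroblast markers 6 had a mean of at least 10, and DCN stayed at or below 5.03. The summed level of the 12 was 1685 to 2156 in DMSO and 2221 to 2792 with pladienolide B. COL1A2 was between 440 and 682 in DMSO and between 658 and 1190 with the drug, and TAGLN between 434 and 512 and then between 761 and 1078. COL1A1 was between 392 and 512 and then between 184 and 244, and PDGFRB between 152 and 268 and then between 90.3 and 137. The summed level of 14 leukocyte markers was 6983 to 7979 in DMSO and 11850 to 15396 with pladienolide B, and CD68, which lysosomes of many cell types also hold, was at 6626 to 7602 and at 11512 to 14890 of these sums. In that list 5 genes, among them MS4A1, were at 0 in all 6 libraries. The part of these markers in the gene results was not tested.

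With pladienolide B, 5776 features (34.3%) rose and 5976 (35.5%) fell at an adjusted p under 0.05 (limma on log2(value + 1), Benjamini-Hochberg over all 16846), and 5094 did not pass. These shares are the background for every count of genes given here. A gene is written as having risen or fallen only where it passed, log2 changes are on the log2(value + 1) scale with their standard error, and values are normalised reads in the order of the replicate numbers. With the same total per library, 2733 features (16.2%) rose and 9086 (53.9%) fell. No feature that fell as deposited rose with the same total, but 520 that rose as deposited fell with the same total. Across the deposited, same-total, same-total off the mitochondrial chromosome, TMM and quantile scalings, 2633 features rose and 5036 fell in all 5. That count was added after the data were seen, and it is given below as the number holding under every scaling.

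The size of the change depended on the kind of feature. Among features that passed, the median rise was 0.72 and the median fall -1.01 on the log2 scale. A change of at least 2-fold was found in 1620 risers (9.62% of features tested) and in 3017 fallers (17.9%), which is 28% of all risers and 50.5% of all fallers. Over all features 583 were at least 4-fold higher and 774 lower, and at 8-fold as deposited 230 were higher and 170 lower. The 4-fold and 8-fold counts are given as deposited only. With the same total per library, 901 features were at least 2-fold higher and 5029 lower. Features with a DMSO level of at most 50.8 normalised reads held 887 of the 1620 risers of at least 2-fold and 407 of the 3017 fallers. Near the level of a few reads the size of a fold change depends on the pseudocount. Among protein-coding genes 548 were at least 2-fold higher and 2391 at least 2-fold lower. At 4-fold, 67 protein-coding genes were higher and 525 lower, and at 8-fold 14 were higher and 73 lower. The 3 values of 1 group lay outside the 3 of the other in 12091 features (71.8%), of which 5972 were higher and 6119 lower with pladienolide B.

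**Figure D1:**
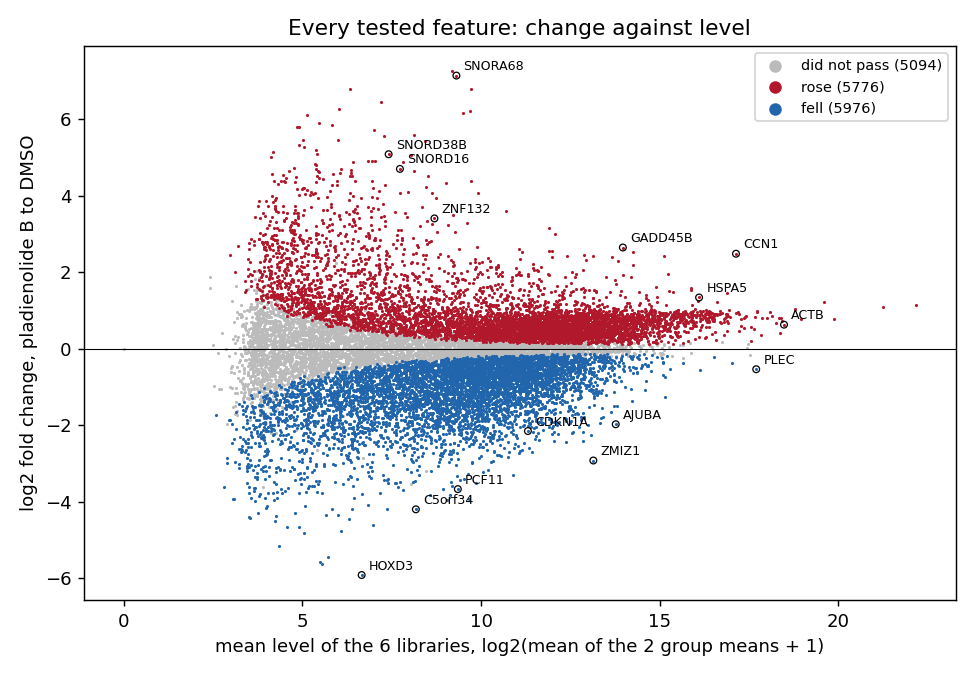
Log2 fold change of every tested feature (vertical axis) against its mean level in the 6 libraries (horizontal axis, log2); red points rose, blue points fell and grey points did not pass at an adjusted p under 0.05, and circled points are named. The largest rises belong to features of low and middle level such as SNORA68 at 7.14, while features of high level that rose, such as ACTB, lie mostly within 1 log2 unit of 0.

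The number of exons and the length of the gene went with the direction of change. Exon number is that of 1 matched GENCODE transcript, so a gene with introns can be listed with a single exon, and 75 of the 454 protein-coding genes listed so span over 20 kb. Of these 454 genes 267 rose and 82 fell, with a median log2 change of 0.54. Of 2730 genes with more than 15 exons 583 rose and 1396 fell, with a median of -0.32, and 603 of them fell at least 2-fold against 14 that rose as far. The bins between were graded: the medians were 0.17 for 2 to 3 exons, 0.08 for 4 to 7 and -0.19 for 8 to 15. With the same total per library the medians ran from 0.08 for a single exon to -0.80 for more than 15, so the genes listed with a single exon then stood close to 0 and every other bin below it.

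Genomic span, taken from the listed coordinates of each feature, gave a similar gradient. Some listed spans are wide for the exon number, such as 703 kb for FTL with 4 exons and 206 kb for GAPDH with 9. Protein-coding genes spanning under 5 kb had a median change of 0.51 with 644 of 1108 higher and 195 lower, and genes over 100 kb had a median of -0.32 with 512 of 2369 higher and 1185 lower. With the same total the medians were 0.05 and -0.79. Exon number and span rise together from gene to gene, so bins of both were also read. Genes listed with a single exon and spanning under 5 kb, 264 in all, had a median of 0.78 (0.30 with the same total). Genes over 100 kb with more than 15 exons, 1169 in all, had one of -0.39. Bins in which the 2 properties part lay between these. The median was 0.01 for 40 single-exon genes of 20 to 50 kb (-0.47 with the same total). It was -0.06 for 21 of 50 to 100 kb (-0.53 with the same total), of which 4 rose and 10 fell. With 2 to 3 exons it was 0.09 for 95 genes over 100 kb and -0.21 for 123 of 50 to 100 kb (-0.38 and -0.68 with the same total). For 73 genes under 5 kb with 8 to 15 exons it was 0.29 (-0.17 with the same total).

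The gradient can be read inside each library, where a scaling factor cancels but for the pseudocount. Levels there are not per length, so only the difference between the groups is read. The median log2 level of genes listed with a single exon minus that of genes with more than 15 exons was -1.03, -1.0 and -1.0 in the DMSO libraries and -0.22, -0.12 and -0.22 in the pladienolide B libraries. The gap thus narrowed by 0.82 log2 units, with no overlap between the groups. For genes under 5 kb minus genes over 100 kb, the difference was 0.21 ± 0.06 in DMSO and 1.15 ± 0.12 with pladienolide B (SD, n = 3), 0.94 units wider. Both comparisons had an exact permutation p of 0.1, the smallest possible. Across the 12512 protein-coding genes, Spearman's rho of the log2 change was -0.22 with exon number, -0.24 with span, -0.24 with spliced length and 0.20 with the DMSO level. Genes are not independent replicates, and these 4 properties also go with each other.

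**Figure D2:**
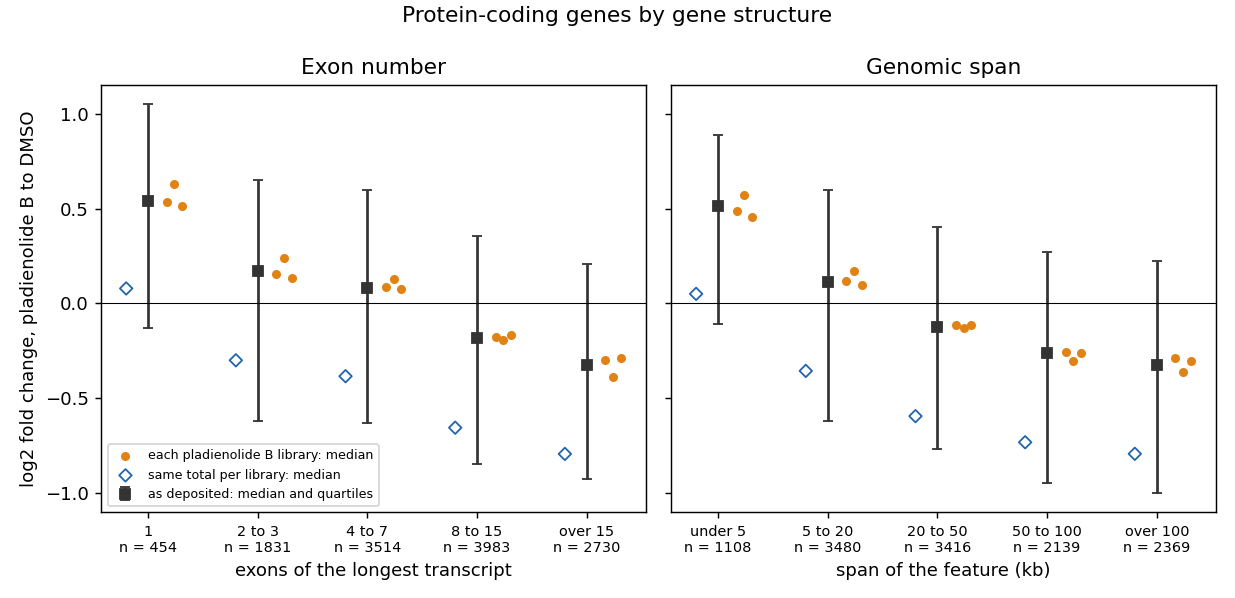
Median log2 fold change of protein-coding genes (squares, with quartiles as bars) by exon number of the matched transcript and by genomic span in kb; orange points are the medians of each pladienolide B library against the DMSO mean, and open diamonds the medians with the same total per library. The medians fall from 0.54 at a single exon to -0.32 above 15 exons, and from 0.51 under 5 kb to -0.32 over 100 kb.

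Among the largest rises were small nucleolar RNAs (snoRNAs), short RNAs that guide chemical modification of ribosomal RNA. Most human snoRNAs lie inside introns of host genes and are released from the spliced intron by trimming. Box C/D members (SNORD) guide ribose methylation and carry a C box near the start and a D box near the end, and box H/ACA members (SNORA) guide pseudouridylation and end in ACA plus a short tail. The sequences below show the boxes of each class in a feature that was among the largest rises. They are GENCODE release 29 sequences on GRCh38, written with T, with capitals for the C and D boxes or the ACA.
SNORD16 (chr15:66502812-66502910, minus strand, inside RPL4): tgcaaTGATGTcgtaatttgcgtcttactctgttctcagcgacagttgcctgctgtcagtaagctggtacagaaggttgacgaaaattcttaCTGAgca
SNORA3A (chr11:8684227-8684356, plus strand, inside RPL27A): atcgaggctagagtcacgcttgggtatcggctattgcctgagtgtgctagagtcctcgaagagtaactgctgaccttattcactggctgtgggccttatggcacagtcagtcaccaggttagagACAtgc

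SNORA68 was at 5.86, 7.43 and 11.2 normalised reads in DMSO and at 1231, 1379 and 1166 with pladienolide B, a log2 change of 7.14 ± 0.26. SNORD38B was at 8.38, 5.78 and 13.2 and then at 305, 386 and 298 (5.08 ± 0.37). SNORD16 was at 10.9, 15.7 and 18.3 and then at 373, 417 and 431 (4.70 ± 0.27). In all 3 the DMSO values stood close to the level of a few reads, and the pladienolide B values far above them. SNORD15B (5.06 ± 0.51), SNORA23 (4.12 ± 0.35) and SNORA3A (4.11 ± 0.27) rose too, and SNORA23 lies inside IPO7, the gene of a nuclear import receptor. All 6 are listed inside a longer tested gene. In these counts, reads of the snoRNA, of its intron and of the host's unspliced transcript cannot be told apart, and mature snoRNAs carry no poly-A tail. The strand setting of the counting is also not given in the sources used here.

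Few snoRNA features were high enough to be tested: 63 of the 260 SNORD features listed and 43 of the 128 SNORA features passed the minimum mean. A feature that passed only through the pladienolide B libraries had to be higher there, and 34 of the 63 and 20 of the 43 had a DMSO mean under 10. The 55 rises and 2 falls of the 63, and the 37 rises of the 43, are therefore descriptions of the features that passed. Features with a DMSO mean of at least 10, a split added after the data were seen, were fewer and their changes smaller. Of 29 such SNORD features 22 rose and 2 fell, with a median of 1.44 (0.98 with the same total). Of 23 such SNORA features 18 rose and none fell, with a median of 1.99 (1.52 with the same total). Among all features 34.3% rose. The 8 small Cajal body RNAs that passed the minimum mean, which guide modification of the spliceosomal RNAs, gave 5 rises and no fall. They were not split by DMSO level, so this count is a description too. The 2 that fell, chosen for mention after their values were seen, were SNORD50B inside SNHG5 and SNORD87 inside SNHG6, with changes of -1.50 and -1.21. The SNORD features that could be joined to GENCODE held TGATGA or TGATGT near the start and CTGA near the end in 40 of 50 (80%), and the SNORA features in 0 of 39. ACA within 8 bases of the end stood in 37 of 39 SNORA features (94.9%) and in 2 of 50 SNORD features (4%).

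The snoRNA features were set beside the genes that hold them, a comparison added after the data were seen. Of the 106 tested, 101 lay inside a longer tested feature, 69 host features in all. Of the hosts 40 rose and 16 fell, with a median of 0.45, or -0.03 with the same total. The signed log2 change of the snoRNA feature was the higher of the pair in 92 of 101 cases. This includes features that passed only through their level with the drug, and pairs in which the host fell and the snoRNA feature was at a smaller negative value. Examples chosen after their values were seen are SNORA57 at -0.52 in CSKMT at -2.48 and SNORD99 at -0.61 in SNHG12 at -1.54, neither snoRNA feature passing the test. Among the 48 in a host with a DMSO mean of at least 10 it was the higher in 40. Hosts that fell held 9 of the 48, and 7 of these 9 snoRNA features rose. Levels were low in DMSO, with a median mean of 9.52 normalised reads over the 106 features against 54.5 with pladienolide B.

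**Figure D3:**
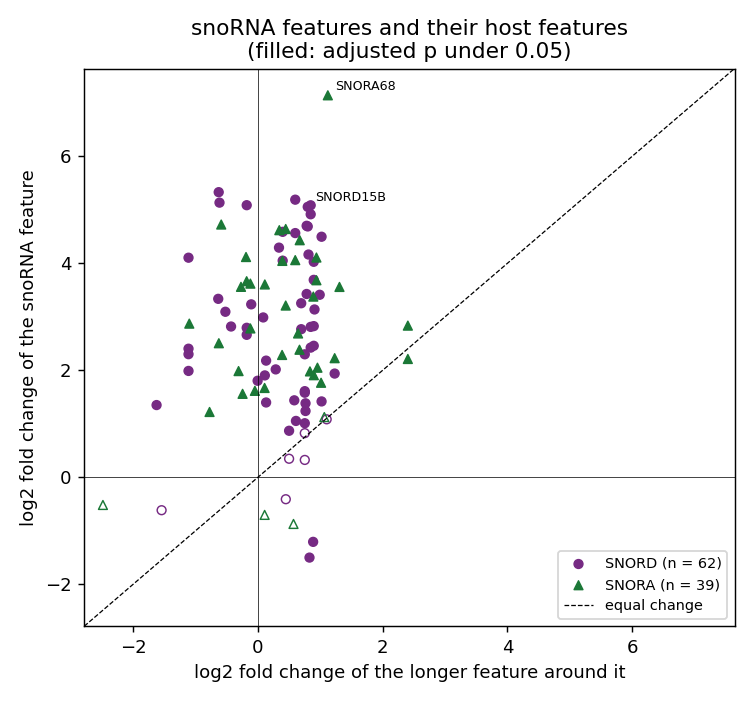
Log2 fold change of each snoRNA feature (vertical axis) against that of the longer feature around it (horizontal axis) for 62 SNORD (circles) and 39 SNORA (triangles); filled marks passed at an adjusted p under 0.05, and the dashed line marks equal change. Of the 101 points 92 lie above the line, and SNORA68 lies highest at 7.14.

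Other short features inside longer genes moved in both directions. Of 1630 nested features of at most 5 kb 775 rose and 266 fell, with a median of 0.63 against -0.07 for their 1359 hosts, and in 1117 of them (68.5%) the signed log2 change was higher than that of the host. Here too the minimum mean favours features that are high with the drug. Among the 1335 with a DMSO mean of at least 10, 541 rose and 265 fell, with a median of 0.35 (-0.10 with the same total), and 62.6% were higher than the host on the signed scale. Over all 1630, which include 295 with a DMSO mean under 10, the nested feature rose while the host fell in 288 pairs. The opposite was seen in 72, and these counts were not split by DMSO level. Pseudogene features were among the largest of these rises. TNRC18P1, inside TBC1D9, was at 3.35, 3.30 and 1.02 normalised reads in DMSO, which is at or near the level of 3 reads, and, passing the minimum only there, at 268, 276 and 331 with pladienolide B. FBXW4P1, inside BCR, was at 11.7, 17.3 and 44.8 and then at 1680, 1719 and 1494 (6.21 ± 0.35). ACTG1P20, inside TMEM222, went from 144, 166 and 119 to 1507, 1406 and 1285 (3.29 ± 0.13). Reads of such copies may be split with their parent genes by the authors' counting, and reads of the surrounding introns cannot be told apart from them.

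Some of the largest rises lay elsewhere. LINC00628, a single-exon non-coding RNA at chr1:204368430-204369719, rose from 44.4, 54.5 and 32.6 to 642, 865 and 718 normalised reads (4.07 ± 0.25). ZNF132, a zinc finger gene at chr19:58432814-58440222, rose from 72.0, 56.1 and 85.6 to 750, 791 and 726 (3.41 ± 0.20). GNRHR2 rose by a log2 change of 3.65 ± 0.32, but it overlaps RBM8A, from which its reads cannot be separated. In each of these 3 the lowest pladienolide B library was above the highest DMSO library.

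The largest falls were spread over genes of unlike function. HOXD3, a homeobox transcription factor gene at chr2:176157307-176173098, was at 220, 171 and 198 normalised reads in DMSO and at 3.01, 0 and 7.61 with pladienolide B (-5.91 ± 0.55, a size that depends on the pseudocount because the treated values stand near the level of 3 reads). PCF11, the cleavage and termination factor that releases RNA polymerase II at gene ends, was at 1202, 1079 and 1330 and then at 72.2, 76.1 and 148 (-3.67 ± 0.21). NEIL3, a DNA glycosylase that unhooks interstrand crosslinks, was at 1784, 1639 and 1713 and then at 146, 169 and 138 (-3.50 ± 0.10). Every treated value of these 3 genes lay far under the lowest DMSO value. Further large falls were those of C5orf34 (-4.20 ± 0.21), the antisense RNA CARD8-AS1 (-4.07 ± 0.21), FAM72A (-3.83 ± 0.14), SPATA2L (-3.68 ± 0.17), KRCC1 (-3.66 ± 0.15) and the zinc finger genes ZNF653 (-3.82 ± 0.13), ZNF253 (-3.78 ± 0.30) and ZNF280C (-3.51 ± 0.24). CARD8-AS1, FAM72A and SPATA2L overlap more highly counted genes, CARD8, SRGAP2 and CDK10.

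Several abundant messages fell as well. ZMIZ1, a PIAS-like transcriptional coregulator of 25 exons at chr10:79068966-79316520, went from 16504, 16865 and 14531 to 2353, 2136 and 1854 (-2.92 ± 0.09). AJUBA, a LIM-domain protein of cell junctions and Hippo signalling, went from 22057, 22002 and 22709 to 5517, 5778 and 5717 (-1.97 ± 0.05). ERRFI1, a feedback inhibitor of the EGF receptor, fell from 53727, 55233 and 45815 to 22233, 22727 and 19870 (-1.25 ± 0.08). The 3 values of each group in these genes lay close together and far from those of the other group. PLEC, which encodes the cytoskeletal linker plectin (-0.53 ± 0.06), MACF1, a spectraplakin gene (-0.73 ± 0.08), and SLC2A1, the glucose transporter gene (-1.08 ± 0.09), were also among the largest losses in mean level. The largest gains in mean level included CCN1, a secreted matricellular protein made from a short gene at chr1:85580200-85583950, which went from 43200, 41805 and 45993 to 256573, 238251 and 238085 (2.48 ± 0.06). Housekeeping messages were among the gains: GAPDH rose by 0.81 ± 0.06, ENO1 by 0.80 ± 0.07 and LDHA by 0.86 ± 0.07, all 3 glycolytic enzymes, and these calls held under every scaling. ACTB (0.63 ± 0.05, and -0.02 with quantile normalisation) and the elongation factor gene EEF1A1 (0.74 ± 0.05, and 0.04 with an adjusted p of 0.231 with quantile normalisation, limma) did not hold under every scaling.

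**Figure D4:**
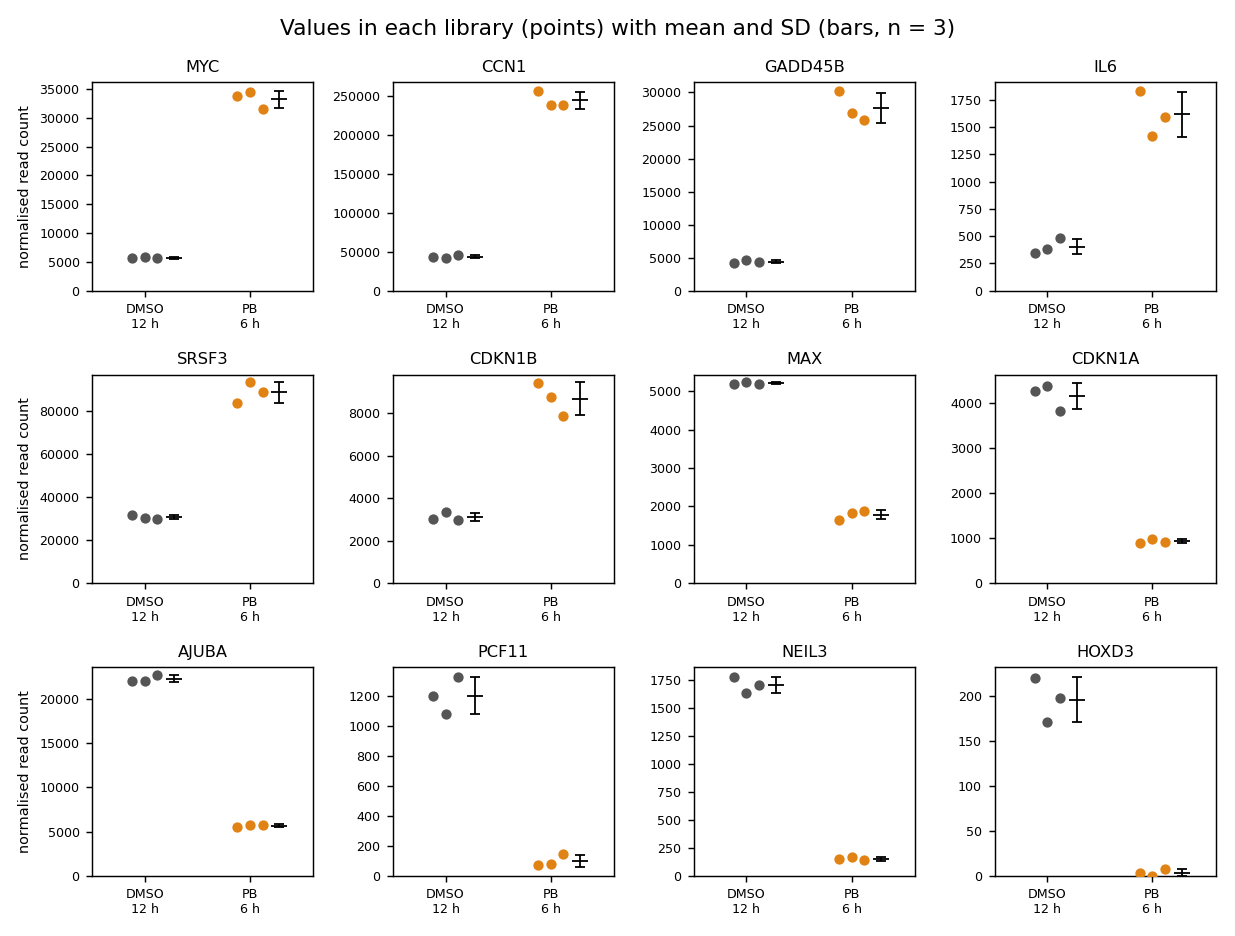
Normalised read counts of 12 named genes in each DMSO (12 h) and pladienolide B (PB, 6 h) library (points), with the mean and SD of each group beside them (bars, n = 3); each panel has its own axis from 0. MYC, CCN1, GADD45B, IL6, SRSF3 and CDKN1B are higher in all 3 pladienolide B libraries and the other 6 genes lower, with no overlap.

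The complex that binds the drug came next. Of 11 SF3b and SF3a subunits 9 rose and 1 fell, with a median of 0.62 (0.15 with the same total), and 5 of the 9 rose under every scaling. SF3B1, the scaffold of the branch-site pocket, at chr2:197389785-197435093 with 25 exons, went from 11236, 10880 and 11872 to 19472, 17526 and 19502 (0.73 ± 0.06). PHF5A, the other wall of the pocket, went from 1179, 1257 and 1258 to 1739, 2280 and 2071 (0.71 ± 0.10). Both were higher in all 3 treated libraries. SF3B5, a single-exon gene, rose by 1.11 ± 0.07 and SF3B6, which contacts the branch-site region, by 0.86 ± 0.05. The exception was SF3A2, a subunit that ties SF3a to the U2 snRNP, which fell from 6515, 7215 and 6906 to 2911, 3182 and 3604 (-1.09 ± 0.08).

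The partners around that complex were divided. Of 18 genes of branch-site and 3' splice site recognition 6 rose and 10 fell, with a median of -0.44, and all 10 falls held under every scaling against 2 of the rises. DDX42, an RNA helicase that contacts SF3b during assembly of the U2 snRNP, went from 6571, 6445 and 6562 to 1439, 1437 and 1782 (-2.08 ± 0.08). RBM5, a splicing regulator, fell by 1.25 ± 0.07 on the log2 scale, and SNRPB2, a protein of the U2 snRNP itself, rose by 0.76 ± 0.06. The core rings moved the other way, since 12 of 15 Sm and U1 proteins rose and 2 fell (median 0.72, and 0.24 with the same total). SNRPB, part of the Sm ring of most spliceosomal snRNPs, rose from 20024, 20117 and 19794 to 38624, 43092 and 37640 (0.99 ± 0.06), and LUC7L, a U1-associated factor, fell by 1.03 ± 0.07.

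Proteins of the later steps of splicing moved in both directions. U5 and tri-snRNP proteins gave 9 rises and 6 falls of 17 (median 0.35, but -0.13 with the same total), with PRPF38A, needed for activation, at -1.54 ± 0.07. Proteins of the NTC complex and the catalytic steps gave 8 rises and 7 falls of 21 (median -0.00), or 3 rises and 15 falls with the same total (median -0.47), with CDC40, a second-step factor, at -1.50 ± 0.10. Under every scaling all 6 and all 7 of these falls held, and 4 of the 9 and 3 of the 8 rises.

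Regulators of splice site choice rose in larger number. Of 13 SR proteins, which bind exonic enhancers and limit their own messages through poison exons, 10 rose and 2 fell (median 0.71, and 0.24 with the same total), and 7 of the 10 rises held under every scaling. SRSF3 went from 31664, 30134 and 29991 to 83721, 93615 and 88642 (1.53 ± 0.05) and SRSF2 from 20183, 23608 and 23309 to 56511, 69390 and 62938 (1.49 ± 0.08). SRSF4 rose by 1.09 ± 0.08, whereas SRSF6 fell by 0.61 ± 0.10. Of 23 hnRNPs, which often oppose SR proteins, 17 rose and 2 fell (median 0.51, which became 0.04 with equal totals and -0.03 after quantile normalisation), and 7 of the 17 rises held under every scaling. HNRNPDL, which regulates its own splicing, went from 12101, 17024 and 16639 to 45458, 47555 and 45614 (1.62 ± 0.11). The single-exon genes HNRNPA0 and PCBP1 rose by 1.18 ± 0.06 and 1.15 ± 0.07, and PTBP3 fell by 1.34 ± 0.09. Of 8 splicing kinases 2 rose and 4 fell, with DYRK1A at 1.48 ± 0.07 and SRPK2 at -1.34 ± 0.07.

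Factors that process or remove the finished message fell in larger number than they rose. Of 18 exon junction and nonsense-mediated decay factors 6 rose and 10 fell (median -0.48), and 9 of the falls held under every scaling. SMG9, which forms a complex with the decay kinase SMG1, went from 2638, 2692 and 2770 to 515, 516 and 652 (-2.27 ± 0.09). SMG6, the endonuclease of the pathway, fell by 1.84 ± 0.08 and UPF2, the bridge between UPF1 and the exon junction, fell by 1.75 ± 0.16, while SMG8 rose by 0.85 ± 0.09. Of 26 genes of mRNA decay and the CCR4-NOT deadenylase 4 rose and 19 fell (median -0.67), 18 of them under every scaling. CNOT2, a scaffold of that deadenylase, fell from 2716, 2439 and 2541 to 714, 598 and 750 (-1.90 ± 0.09) and TOB2, which recruits it, fell by 1.62 ± 0.07. ZFP36L1, which brings AU-rich messages to decay, went the other way, from 8115, 8232 and 8574 to 23030, 21735 and 21084 (1.40 ± 0.05).

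Cleavage and polyadenylation factors split evenly, with 8 rises and 8 falls of 19, but 7 of the falls and 2 of the rises were at least 2-fold. Beside PCF11, CPSF4, a zinc finger subunit that recognises the poly-A signal, went from 1569, 1565 and 1552 to 330, 392 and 355 (-2.12 ± 0.08), and the poly-A polymerase gene PAPOLG fell by 1.72 ± 0.12. CLP1, the partner of PCF11, rose from 689, 680 and 662 to 2018, 2427 and 2097 (1.68 ± 0.10), and CSTF2T, a single-exon gene that arose by retroposition, rose by 1.57 ± 0.06. All 8 falls and 3 of the 8 rises held under every scaling. The snoRNA host genes, many of whose spliced RNAs are degraded during translation, rose in 17 of 24 cases and fell in 4 (median 0.68, and 0.21 with the same total). SNHG17 went from 1137, 1241 and 1484 to 5904, 7390 and 7132 (2.40 ± 0.11) and SNHG15 from 1011, 1219 and 1092 to 4110, 5080 and 4651 (2.06 ± 0.09), while SNHG7 fell by 1.13 ± 0.13.

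The polymerase itself and the factors that control it differed in direction. Of 11 RNA polymerase II subunits 8 rose and 1 fell (median 0.66, and 0.19 with the same total), and 7 of the rises held under every scaling. POLR2F rose by 1.05 ± 0.07, and POLR2D, part of the detachable stalk, was the faller at -0.93 ± 0.07. Of 30 elongation control genes 6 rose and 18 fell (median -0.42), 16 of them under every scaling. BRD3, a bromodomain reader of acetylated histones that overlaps BRD3OS, went from 2120, 2237 and 2080 to 455, 485 and 384 (-2.29 ± 0.09). MEPCE, which caps and stabilises 7SK RNA, fell by 1.95 ± 0.09, AFF1, a super elongation complex scaffold, fell by 1.85 ± 0.10, and HEXIM1, the single-exon gene of the P-TEFb inhibitor, from 10627, 11787 and 11126 to 5857, 6152 and 5688 (-0.92 ± 0.06).

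Mediator, which links activators to the polymerase, had 4 subunits that rose and 20 that fell of 30 (median -0.36), 15 of the falls under every scaling. MED26, listed with a single exon, went from 1546, 1570 and 1558 to 5747, 6583 and 5677 (1.94 ± 0.07), and MED7 rose by 0.93 ± 0.08. CDK8, the kinase of the Mediator module, fell from 626, 661 and 835 to 141, 204 and 183 (-2.01 ± 0.15), and MED1, the nuclear receptor contact, fell by 1.25 ± 0.09. Of 61 chromatin regulators 10 rose and 36 fell (median -0.37), with 33 of the falls under every scaling. KMT2D, the 54-exon gene of an enhancer H3K4 methyltransferase, went from 1045, 1162 and 1144 to 140, 210 and 161 (-2.72 ± 0.13). EED, a core subunit of the Polycomb H3K27 methyltransferase, went from 1977, 2022 and 2106 to 415, 319 and 412 (-2.42 ± 0.11), KDM2B fell by 2.05 ± 0.09, and the deacetylase gene HDAC1 rose by 0.71 ± 0.06. Of 36 nuclear pore genes 9 rose and 20 fell (median -0.23), with NUP214 at -1.49 ± 0.08 and NUP35 at -1.43 ± 0.09. No rise among the pore genes held under every scaling, against 18 of the falls.

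Immediate early genes are transcribed within minutes of a signal, are mostly short with few introns, and make unstable messages. Of 47 tested 33 rose and 8 fell, with a median of 1.00 (0.52 with the same total), and 22 of the rises were at least 2-fold. Its median was the highest of the 52 gene lists as deposited and with the same total, but with quantile normalisation it was 0.73 against 0.80 for histones. Under every scaling 22 rises and all 8 falls held. MYC, a growth-promoting transcription factor gene with a short-lived message, went from 5639, 5923 and 5628 to 33704, 34385 and 31557 (2.53 ± 0.05, adjusted p = 3.76e-12, limma). GADD45B, a stress sensor upstream of the p38 and JNK kinases, went from 4180, 4719 and 4331 to 30229, 26870 and 25873 (2.65 ± 0.07). FOSL1, an AP-1 subunit of mesenchymal breast cancer lines, went from 60639, 66781 and 66323 to 176660, 185969 and 168559 (1.46 ± 0.06). PPP1R15A, which directs dephosphorylation of eIF2 alpha, rose by 1.04 ± 0.10. By the listed coordinates it overlaps the FTL feature, which is given a span of 703 kb.

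The class did not move as a whole. JUN, a single-exon AP-1 gene, fell from 9536, 10441 and 10205 to 6237, 6661 and 6740 (-0.62 ± 0.06). SRF, the factor that drives many of these genes, fell from 6230, 6167 and 6473 to 2647, 3062 and 3108 (-1.10 ± 0.07). ZFP36, the AU-rich element binding protein tristetraprolin, fell by 1.15 ± 0.15 and BTG2, an antiproliferative CCR4-NOT cofactor, from 318, 309 and 341 to 50.2, 85.1 and 108 (-2.05 ± 0.24). The low DMSO level of BTG2 did not bring the groups into overlap.

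A TATA box, TATAAA, fixes the start of transcription in many inducible genes. The stretch before the start of GADD45B and PPP1R15A is shown, with TATAAA in capitals, because both genes rose and both hold it at the usual distance (RefSeq, GRCh38.p14, plus strand, ending at the last base before the start).
GADD45B (chr19:2476076-2476126, TATAAA beginning 31 bases before the start): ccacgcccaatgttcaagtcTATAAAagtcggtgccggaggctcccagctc
PPP1R15A (chr19:48872371-48872420, TATAAA beginning 30 bases before the start): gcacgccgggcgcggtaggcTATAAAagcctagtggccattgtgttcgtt

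Searched on both strands from 250 bases before to 50 after the start, TATAAA stood in 9 of 32 immediate early genes with a RefSeq promoter (28.1%), against 672 of all 11132 tested symbols with one (6.04%). It stood in 68 of 569 genes that rose at least 2-fold (12.0%) and in 112 of 2084 that fell as far (5.37%). The genes holding it had a median change of 0.08 and those without it -0.07, so the letters alone went with little difference in level. The cyclic AMP response element TGACGTCA stood in 3 of the 32 immediate early promoters (9.38%) and in 3.15% of all. A match of letters describes the window and is not a demonstration of binding.

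Partners of MYC fell while MYC rose. Of 10 genes of the MYC and MAX network 2 rose and 6 fell (median -1.04), and all 6 falls held under every scaling. MAX, the obligate dimer partner through which MYC binds DNA, went from 5202, 5248 and 5182 to 1647, 1822 and 1877 (-1.55 ± 0.06), and MLX, its relative in the glucose-sensing branch, from 2807, 2826 and 2798 to 1050, 1085 and 968 (-1.44 ± 0.07). In the MAPK pathway and its feedback genes 13 of 31 rose and 9 fell (median -0.01), and with the same total 6 rose and 19 fell (median -0.48). SPRY2, an inhibitor of receptor signalling encoded in 2 exons, went from 4798, 4971 and 4971 to 24004, 26350 and 21676 (2.28 ± 0.08), and the ERK phosphatase gene DUSP6 from 11997, 10835 and 11371 to 35614, 32014 and 28848 (1.49 ± 0.07). SPRED3, a relative of the Sprouty genes, fell from 852, 930 and 810 to 141, 123 and 142 (-2.67 ± 0.12), and SOS1, the RAS exchange factor of 24 exons, fell by 1.42 ± 0.09.

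Targets and regulators of YAP and TEAD, the effectors of the Hippo pathway, gave 9 rises and 9 falls of 20 (median 0.00), and with the same total 5 rises and 15 falls (median -0.47). Beside CCN1, AMOTL2, a junctional inhibitor of YAP, rose from 6521, 6381 and 6823 to 19008, 19350 and 17202 (1.49 ± 0.06), and NF2, the upstream tumour suppressor merlin, rose by 1.82 ± 0.11. Beside AJUBA, ANKRD1, a much-used YAP target, fell from 16350, 12687 and 14137 to 3449, 2583 and 3024 (-2.26 ± 0.11), and TEAD3 fell by 1.98 ± 0.07. The textbook targets CCN1 and ANKRD1 thus lay on opposite sides. In the NF-kB and cytokine list 6 of 27 rose and 9 fell (median 0.17, but -0.28 with the same total). IL6, an inflammatory cytokine gene, went from 349, 381 and 484 to 1833, 1416 and 1592 (2.00 ± 0.17), and the feedback inhibitor genes TNFAIP3 and NFKBIA rose by 1.65 ± 0.15 and 1.38 ± 0.08. RELA, the activating subunit, fell from 8067, 8680 and 8307 to 2575, 2907 and 3229 (-1.53 ± 0.07), and BCL3, a nuclear cofactor, fell by 2.19 ± 0.15. Interferon response and antigen processing genes gave 12 rises and 8 falls of 28 (median -0.10), but 4 rises and 14 falls with the same total (median -0.57).

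Genes of cell cycle arrest and death were divided, with more falls than rises. MDA-MB-231 carries mutant p53, so the p53 list names genes known as targets and not p53 activity. Of 29 such genes 9 rose and 16 fell (median -0.34). CDKN1A, which encodes the cell cycle inhibitor p21, went from 4269, 4361 and 3811 to 895, 990 and 913 (-2.15 ± 0.09), and SESN1, a stress-induced regulator of mTORC1, fell by 2.12 ± 0.20. PLK2, a short gene of 14 exons encoding a stress-induced polo-like kinase, rose from 15674, 15305 and 16152 to 58991, 63074 and 61213 (1.96 ± 0.05), and GADD45A rose by 1.87 ± 0.06. Of 31 BCL2 family and caspase genes 9 rose and 19 fell (median -0.34), 13 falls and 5 rises under every scaling.

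MCL1, a survival gene whose splice forms differ in function and which is known for its response to SF3b inhibitors, was at 29308, 29534 and 29593 and then at 22183, 21707 and 21156 (-0.44 ± 0.05), a fall without overlap but under 2-fold. BCL2L1, which also encodes a long survival form and a short death form, rose from 16373, 15121 and 14795 to 32650, 33225 and 26356 (0.99 ± 0.08). Gene-level counts do not separate those forms. PMAIP1, the BH3-only antagonist NOXA of MCL1, rose by 0.91 ± 0.06, while BIK, another BH3-only gene, fell by 2.61 ± 0.26. BAK1, a pore-forming effector of mitochondrial death, went from 2416, 2231 and 2435 to 435, 481 and 439 (-2.38 ± 0.08), and APAF1, the apoptosome scaffold of 26 exons, fell by 1.59 ± 0.08.

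Among 29 CDK inhibitors and cyclins 6 rose and 18 fell (median -0.55), with 17 of the falls under every scaling. CDKN1B, the p27 inhibitor, rose from 3027, 3329 and 2990 to 9418, 8753 and 7846 (1.47 ± 0.08), opposite to CDKN1A, and WEE1, the kinase that holds CDK1 inactive, rose by 1.15 ± 0.07. CCNF, an F-box protein gene of late cycle, fell from 3248, 3418 and 3322 to 745, 525 and 529 (-2.49 ± 0.11). Replication genes gave 22 rises and 22 falls of 50 (median 0.05, but -0.42 with the same total), with the polymerase subunit gene POLD2 at 0.72 ± 0.05, the thymidine kinase gene TK1 at 0.74 ± 0.06, the origin recognition gene ORC6 at -1.86 ± 0.10 and the initiation factor gene MCM10 at -1.76 ± 0.09. Of those falls 21, and of the rises 6, held under every scaling.

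Homologous recombination and Fanconi anemia genes, most of them long and of many exons, gave 5 rises and 28 falls of 43 (median -0.83), 18 of the falls at least 2-fold. None of the rises and 27 of the falls held under every scaling. MUS81, a structure-selective nuclease, went from 4105, 4339 and 4157 to 1040, 1009 and 1152 (-1.98 ± 0.08), and DNA2, the resection nuclease and helicase, fell by 1.92 ± 0.15. Mitotic genes gave 10 rises and 41 falls of 64 (median -0.55), 40 of the falls under every scaling against 1 of the rises. CDCA8, the borealin subunit of the Aurora B complex, went from 7515, 7681 and 7369 to 1699, 1429 and 1738 (-2.22 ± 0.07), NDC80, the microtubule contact of the kinetochore, from 7343, 6901 and 7045 to 1974, 1435 and 2013 (-1.99 ± 0.11), and the separase gene ESPL1 fell by 1.90 ± 0.15. MIS12, a kinetochore gene of 3 exons, rose from 2683, 2700 and 2856 to 4993, 5007 and 5064 (0.87 ± 0.06).

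Ribosomal protein messages are abundant, stable and made from short genes with several introns. All 77 tested rose, within a narrow range of 0.72 to 1.25 and with a median of 0.91 (0.43 with the same total). Under every scaling 65 rose. RPL41 went from 20109, 18412 and 17505 to 43187, 45573 and 42014 (1.22 ± 0.07), RPL21 from 1521, 1574 and 1609 to 3838, 3793 and 3425 (1.23 ± 0.07), and RPS28 from 1786, 1801 and 1819 to 4247, 4386 and 4226 (1.25 ± 0.07). In each of the 3 genes all treated values lay above all DMSO values. Reads of these genes may be shared with their many pseudogene copies by the authors' counting.

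These messages start with a C followed by a run of pyrimidines, the 5' terminal oligopyrimidine tract through which their translation follows mTOR. Windows from 10 bases before to 20 after the start show it, with capitals for the C and the pyrimidine run (RefSeq, GRCh38.p14, in the direction of transcription). RPS3 and RPL27A are shown because they hold SNORD15B and SNORA3A, and EEF1A1 because it carries the tract without being a ribosomal protein gene.
RPL41 (chr12:56116623-56116652, plus strand): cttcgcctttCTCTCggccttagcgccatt
RPL21 (chr13:27251548-27251577, plus strand): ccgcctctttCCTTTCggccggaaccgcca
RPS3 (chr11:75399508-75399537, plus strand): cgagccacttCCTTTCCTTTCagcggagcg
RPL27A (chr11:8682782-8682811, plus strand): gaaggccttcCTTTTTCgtctgggctgcca
EEF1A1 (chr6:73521013-73521042, minus strand): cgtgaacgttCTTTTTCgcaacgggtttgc

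A C at the annotated start followed by at least 4 pyrimidines stood in 41 of 61 ribosomal protein genes with a RefSeq window (67.2%) and in 575 of all 11132 symbols (5.17%). The 20 ribosomal protein genes without it at the annotated base rose as well, with a median of 0.89 against 0.91. Among genes that encode no ribosomal protein, 192 of 534 with the tract rose (36%), with a median change of -0.03. Of the 10537 without it, 33.6% rose with a median of -0.08. Both shares were near the 34.3% of all features.

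As deposited, other parts of the protein and energy machinery also had more rises than falls. Of 72 nuclear genes of oxidative phosphorylation, short genes for the most part, 70 rose and 1 fell (median 0.79, and 0.32 with the same total), 56 of them under every scaling. UQCRQ, a subunit of complex III, went from 7494, 6959 and 6656 to 14752, 15197 and 15047 (1.09 ± 0.06), and NDUFS6, a complex I subunit, rose by 1.06 ± 0.06. The faller was NDUFV3, another complex I subunit, at -0.72 ± 0.07. All 15 features of the mitochondrial chromosome, whose transcripts have no introns and are made outside the nucleus, rose, with a median of 1.09. With the same total 11 of them rose, and 7 did so under every scaling. Mitochondrial ribosomal proteins gave 52 rises and 10 falls of 74 (median 0.36), but 21 rises and 33 falls with the same total (median -0.11). MRPL36 was at 1.15 ± 0.06.

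Translation factors gave 35 rises and 5 falls of 45 (median 0.39), but 15 rises and 19 falls with the same total (median -0.09). Only 8 of the rises held under every scaling. Aminoacyl-tRNA synthetases gave 17 rises and 7 falls of 32, none at least 2-fold (median 0.19), but 1 rise and 19 falls with the same total (median -0.28). Proteasome subunits gave 31 rises and 3 falls of 37 (median 0.54, and 0.07 with the same total), with SEM1 at 0.87 ± 0.05 and PSMA2 at 0.83 ± 0.05. Ribosome biogenesis factors, which assemble the ribosome in the nucleolus, gave 10 rises and 16 falls of 40 (median -0.10). TAF1D, a subunit of the RNA polymerase I selectivity factor and a snoRNA host, rose from 5667, 6051 and 6473 to 20517, 17782 and 26070 (1.81 ± 0.11), and NHP2, a box H/ACA core protein gene, by 0.93 ± 0.06. UBTF, the activator of ribosomal DNA transcription, fell from 9614, 9533 and 9289 to 3878, 3912 and 3753 (-1.30 ± 0.05), and the nucleolar GTPase gene GNL3 fell by 1.11 ± 0.08.

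Chaperones gave 25 rises and 2 falls of 34 (median 0.42, but -0.06 with the same total), of which 4 rises and no fall held under every scaling. In the endoplasmic reticulum, HSPA5, the chaperone BiP, rose from 41026, 39530 and 38830 to 97706, 107600 and 97326 (1.34 ± 0.05), and its cochaperone gene DNAJB9 from 1006, 1186 and 1135 to 2842, 3393 and 3557 (1.55 ± 0.10). The list of the integrated stress and unfolded protein responses gave 17 rises and 8 falls of 31 (median 0.46, and -0.01 with the same total). ATF4, the transcription factor at the centre of the integrated stress response, fell from 18031, 19823 and 17682 to 7352, 9099 and 9087 (-1.13 ± 0.08). CHAC1, a glutathione-degrading ATF4 target, fell from 333, 404 and 218 to 60.2, 68.4 and 120 (-1.95 ± 0.26), and ERN1, the sensor IRE1 of 22 exons, fell by 1.76 ± 0.19.

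**Figure D5:**
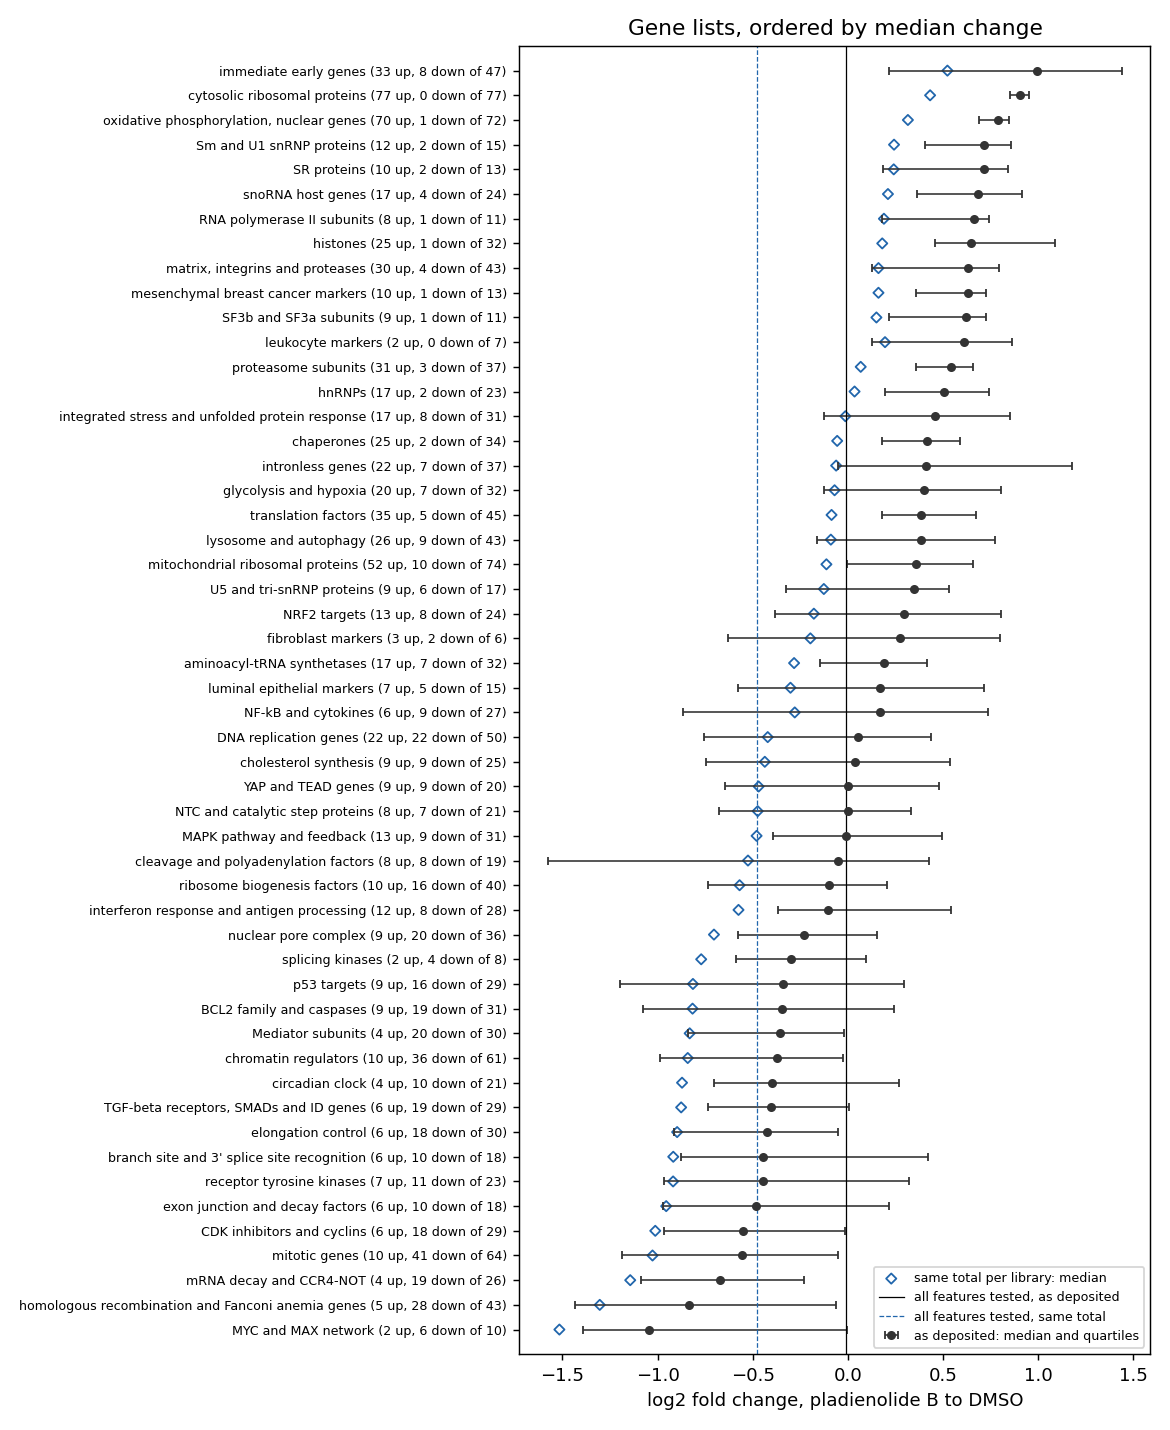
Median log2 fold change of the 52 gene lists (points, with quartiles as bars) in order, with open diamonds for the medians with the same total per library; the vertical lines mark the median of all features tested on each scale, and the numbers of members that rose and fell stand beside each name. Immediate early genes (1.00) and ribosomal proteins (0.91) lie at the top, and homologous recombination genes (-0.83) and the MYC and MAX network (-1.04) at the bottom.

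Over the 52 lists, the median exon number of a list and its median change had a Spearman's rho of -0.47. That is a description over lists that share libraries and some members, and the part of gene structure in any single list was not tested.

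Metabolic lists were mixed. Glycolysis and hypoxia genes gave 20 rises and 7 falls of 32 (median 0.40, but -0.07 with the same total). ADM, the hypoxia-induced peptide adrenomedullin, rose from 3397, 3987 and 4301 to 9908, 11335 and 12957 (1.55 ± 0.12), whereas PFKFB4, a regulator of glycolytic flux, fell from 1647, 1782 and 1123 to 192, 249 and 146 (-2.96 ± 0.20) and the prolyl hydroxylase gene EGLN3 fell by 1.40 ± 0.15. NRF2 targets gave 13 rises and 8 falls of 24 (median 0.29, but -0.18 with the same total). FTH1, the ferritin heavy chain, rose from 140831, 154148 and 144374 to 273520, 315349 and 275826 (0.97 ± 0.06), GCLC, the rate-limiting enzyme of glutathione synthesis with 16 exons, fell from 1658, 1911 and 1841 to 286, 383 and 349 (-2.41 ± 0.12), and OSGIN1, an oxidative stress-induced growth inhibitor, fell by 2.11 ± 0.14.

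Cholesterol synthesis genes gave 9 rises and 9 falls of 25 (median 0.04, but -0.44 with the same total), all 9 falls and 1 rise under every scaling, with the sterol carrier gene STARD4 at -1.40 ± 0.10. Lysosome and autophagy genes gave 26 rises and 9 falls of 43 (median 0.38, but -0.09 with the same total). GABARAP, a short gene of autophagosome membranes, rose by 1.00 ± 0.08, while TFEB, the transcription factor of lysosomal genes, fell from 385, 447 and 337 to 99.3, 113 and 85.0 (-1.96 ± 0.16) and ULK1, the initiating kinase of 28 exons, fell by 1.64 ± 0.10. Circadian clock genes gave 4 rises and 10 falls of 21 (median -0.40). The repressor genes BHLHE41 and NR1D1 rose by 1.89 ± 0.09 and 1.62 ± 0.17, and RORA, whose feature spans 741 kb, and CRY2 fell by 1.69 ± 0.26 and 1.51 ± 0.13.

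Genes of the cell surface and surroundings were divided by kind. Of 43 genes of matrix, integrins and proteases 30 rose and 4 fell (median 0.63, and 0.16 with the same total), 15 of the rises under every scaling. These were long genes of many exons, with medians of 22 exons and 67.3 kb against 7 exons and 21.9 kb over all features. The list thus lay against the gradient by gene structure. TIMP1, an inhibitor of metalloproteinases, rose from 19513, 19461 and 17510 to 37704, 38913 and 33702 (0.96 ± 0.07). FN1, fibronectin, went from 60604, 71136 and 47211 to 113476, 144537 and 82403 (0.91 ± 0.19), but did not pass with the same total (0.44, adjusted p = 0.0510, limma) or with quantile normalisation (0.13, adjusted p = 0.524). Receptor tyrosine kinases gave 7 rises and 11 falls of 23 (median -0.45), with none of the rises and all 11 falls under every scaling. EPHB4, an ephrin receptor gene, fell from 6690, 6777 and 6734 to 1556, 1439 and 1315 (-2.23 ± 0.07).

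TGF-beta receptors, SMADs and ID genes gave 6 rises and 19 falls of 29 (median -0.40), 15 of the falls under every scaling. SMAD3, a receptor-activated transcription factor, went from 2932, 2630 and 2575 to 437, 457 and 462 (-2.58 ± 0.08), whereas SMAD7, the inhibitory member and an early target of the pathway, rose from 1806, 1873 and 1923 to 4673, 3993 and 3519 (1.11 ± 0.09). Markers of cell identity moved in both directions. Mesenchymal markers gave 10 rises and 1 fall of 13 (median 0.63, but -0.00 with quantile normalisation), and 2 of the rises held under every scaling. Luminal markers gave 7 rises and 5 falls of 15 (median 0.17, but -0.30 with the same total), with GATA3, a luminal transcription factor, going from 381, 390 and 403 to 1405, 1599 and 1582 (1.96 ± 0.09) and MLPH, a luminal melanosome transport gene, from 4581, 4426 and 4073 to 1138, 1068 and 959 (-2.05 ± 0.08).

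Genes without introns were read as lists of their own. Of 32 histone genes tested 25 rose and 1 fell (median 0.65, and 0.18 with the same total), 11 of the rises under every scaling. Replication-dependent histone messages end in a stem-loop and not a poly-A tail, so poly-A libraries hold only a part of them. H2AX, whose gene makes both kinds of message, rose from 19594, 21026 and 19864 to 53266, 65409 and 55130 (1.52 ± 0.07), and H2BC21 by 1.28 ± 0.16. In a wider list of 37 intronless genes, which shares some histones with the first, 22 rose and 7 fell (median 0.41, but -0.06 with the same total). CEBPD, an inflammation-induced transcription factor gene, went from 737, 723 and 659 to 3348, 4478 and 3128 (2.35 ± 0.11), FEM1A, a substrate receptor of a ubiquitin ligase, from 6246, 6450 and 7163 to 19580, 23390 and 21337 (1.69 ± 0.07), and CHMP1B, an ESCRT-III gene, rose by 1.58 ± 0.07. Having no intron did not fix the direction, as JUN and HEXIM1 show. KLHL25, whose matched GENCODE transcript has a single exon though its feature spans 35.6 kb, fell from 302, 341 and 349 to 26.1, 49 and 48.2 (-3.03 ± 0.22).

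Zinc finger genes of the ZNF series, a large family of DNA-binding repressors, gave 159 rises and 220 falls of 470 (median -0.28), 103 and 183 of them under every scaling. The family was wide in both directions, with 79 members at least 2-fold higher and 133 at least 2-fold lower and quartiles of -1.08 and 0.66. ZNF614 rose from 592, 574 and 629 to 3753, 3062 and 4134 (2.60 ± 0.11), next to the fall of ZNF653 and ZNF253. HOX genes gave 1 rise and 7 falls of 12 (median -1.10), 6 of the falls at least 2-fold. HOXD4, a 2-exon neighbour of HOXD3, went from 283, 341 and 360 to 766, 930 and 775 (1.33 ± 0.12), and HOXB3 fell from 189, 164 and 175 to 38.1, 47.7 and 54.5 (-1.90 ± 0.22).

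Non-coding classes differed among themselves. Antisense RNAs gave 121 rises and 74 falls of 412 (median 0.20, but -0.26 with the same total), and divergent transcripts 33 rises and 16 falls of 86 (median 0.13, but -0.31 with the same total). Long intergenic RNAs of the LINC series gave 41 rises and 48 falls of 221, so 18.6% rose and 21.7% fell, both under the shares of all features. LINC00638 fell from 241, 210 and 190 to 47.2, 31 and 12.7 (-2.95 ± 0.35), and the microRNA host MIR3142HG fell by 2.17 ± 0.27. Processed pseudogenes gave 28 rises and 9 falls of 56 (median 0.67), and the 2558 features without a symbol 956 rises and 556 falls (median 0.28, but -0.18 with the same total). Features nested in a longer one had a median of 0.39 and those not nested -0.06, a split added after the data were seen. Among single-exon features, the nested ones had a median of 1.40 (161 of 220 rose), and 0.94 with the same total. The protein-coding ones that were not nested had one of 0.52 (234 of 402 rose, 74 fell), and 0.05 with the same total (149 rose, 124 fell). The nested single-exon features include snoRNA features already described, such as SNORA68. Nested features were not split by DMSO level here, so the minimum mean favours rises among them.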

How the data were processed

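Polyadenylated RNA of MDA-MB-231 cells was sequenced in 9 libraries, 3 per group, made with a strand-specific kit (fr-secondstrand), per the labels' protocols. The build hg38 and the tools STAR 2.7.5a, FastQC, SAMtools, Picard and DESeq2 are listed in the submitters' processing notes, without roles. How features were annotated and counted, and with which strand setting, is not given in the sources used here. As a signal, the authors deposited counts over a size factor for each library, per the name of the deposited table. The step between low values gave the value of 1 read in each library, and 100% of values came out as whole reads within 0.01. The 3 reads of a floor corresponded to 2.48 to 3.87 normalised reads. This covers counting error only.

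Features with a mean of at least 10 were tested as log2(value + 1) with limma 3.58.1 (trend, R 4.3.3), all 9 libraries in 1 fit with a mean per group. The test was two-sided with Benjamini-Hochberg adjustment and called at 0.05. Single values per library were compared by exact two-sided permutation tests. Alternatives were other scalings (same total, same total off the mitochondrial chromosome, TMM, quantile), pseudocounts of 0.5 and 5, no filter, a minimum of 50, protein-coding genes only, 6 libraries in the fit, a replicate block, each library left out, and edgeR 4.0.16 (quasi-likelihood) and DESeq2 1.42.0 on the recovered reads. edgeR called 5268 higher and 6417 lower, DESeq2 5861 and 5909. The scripts were tested on simulated data.

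Exon numbers came from GENCODE release 29 by symbol and overlap (13776 features matched). Start windows came from RefSeq (GRCh38.p14). Lists were matched by symbol or older symbol, 1582 of 1694 memberships to a tested feature. The comparison and the lists were chosen with earlier results of these data known. Genes were named by rule: the 12 largest rises and falls among features that have a symbol, average 100 or more and do not overlap between groups, the 10 largest gains and losses in mean, up to 3 passing members per list and direction, up to 2 per class or bin and direction, and SF3B1, PHF5A, MYC, MCL1, CDKN1A, HEXIM1, JUN, RPL21, GAPDH and ACTB. No sample was left out and no value imputed. No 2 libraries of a group were alike within counting noise. Some features that the naming rule selects, and some sequences, are not reported here.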

Additional observations from a re-analysis of the deposited data

How the results depend on the processing

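Of the 183 named genes, 180 kept their direction and side of the threshold in all 19 alternatives (those of protein-coding genes only for the 165 that are such). The exceptions were ACTB, at -0.0212 with quantile normalisation, EEF1A1, and FN1, whose values stand beside them in the report. The counts moved most with the scaling. With the same total per library 2733 features rose and 9086 fell, 901 and 5029 of them at least 2-fold. Leaving the mitochondrial chromosome out of that total gave 3205 rises, 976 at least 2-fold, and 4630 falls of at least 2-fold. Of called features 49.1% were higher as deposited and 23.1% with the same total. At least 2-fold rises numbered 985 with a minimum mean of 50 and 549 among protein-coding genes only, both of which test fewer features. Leaving out 1 library gave 5403 to 5640 rises, 5581 to 5967 falls, 1526 to 1700 rises of at least 2-fold and 2887 to 3102 falls of at least 2-fold. On recovered reads, edgeR called 1464 and 3261 changes of at least 2-fold up and down, and DESeq2 1636 and 2941.

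Whether the replicate numbers pair the libraries was not settled. Deviations of same-numbered DMSO and pladienolide B libraries correlated at 0.081, 0.003 and 0.108. Of the 3 pladienolide B libraries 2 correlated best with their own number, a hint from the data only. With a replicate block 6081 features rose and 6248 fell, 1629 and 3029 of them at least 2-fold. Depth limits features near 3 reads in a group, such as HOXD3 with the drug and several snoRNAs in DMSO, whose fold changes depend on the pseudocount.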
